A study of Homo sapiens with 12 samples.

Results

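The respiratory chain and the ATP synthase of the inner mitochondrial membrane are described here through the RNA of their nuclear-encoded subunits in melanoma cells treated with the BRAF inhibitor PLX4032 (vemurafenib). Members were the genes whose symbol begins with NDUFA, NDUFB, NDUFC, NDUFS, NDUFV, UQCR, COX4, COX5, COX6, COX7, COX8 or ATP5 followed by a letter, or is SDHA, SDHB, SDHC, SDHD, CYC1 or CYCS. The rule uses names only and no measured value. It found 75 of the 11963 genes named by a probe set of 1 gene symbol. Of these, 28 belong to complex I, 3 to complex II, 7 to complex III, 1 is cytochrome c, 13 belong to complex IV and 16 to complex V. A further 5 are complex I assembly factors that share the NDUFA letters, and 2 make no protein: the pseudogene ATP5MC2P1 and the antisense gene NDUFB2-AS1.

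Complexes I and II pass electrons from NADH and from succinate to ubiquinone. Complex III moves them on to cytochrome c, and complex IV, cytochrome c oxidase, hands them to oxygen. Complexes I, III and IV pump protons, and complex V, the ATP synthase, uses the returning protons to make ATP. All members are nuclear genes; complexes I, III, IV and V also need subunits encoded in mitochondrial DNA, and 0 of the 13 such genes has a probe set of 1 symbol here.

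RNA of 5 human melanoma cell lines, SkMel-1, SkMel-5, SkMel-19, SkMel-28 and Malme3M, was hybridised to 12 single-colour Affymetrix arrays. All 5 lines carry BRAF V600E, the activating mutation that PLX4032 targets, and all cells were harvested 8 h after the start of treatment. The groups were 250 nM PLX4032 (5 arrays, 1 for each line), 1000 nM PLX4032 (2 arrays, SkMel-19 and Malme3M) and the solvent DMSO (5 arrays, 1 for each line). With 1 array for each line and dose, a line has no error of its own. The error given (SE) is the moderated standard error of limma. It combines the spread of the response between lines with a variance trend fitted over all genes. Where both doses enter one fit, the spread it uses also pools the doses. Values are array signals in arbitrary units, scaled by the authors to a common level on each array, so that a change is relative to the rest of the RNA on the array. The cultures were measured in bulk: a change in every cell and a change in the number of cells that make the RNA cannot be told apart.

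As a check that the drug acted, DUSP6, a phosphatase gene switched on by ERK signalling, fell by 5.04 on the log2 scale with 250 nM PLX4032 (SE 0.57, limma adjusted p = 0.000679, lower in 5 of 5 lines). All 7 measured melanocyte markers lay above the signal filter, against 2 of 6 fibroblast, 1 of 5 blood cell, 2 of 5 keratinocyte and epithelial and 0 of 3 endothelial markers. The melanocyte markers' summed signal was 41528 to 65657 at 250 nM and 31538 to 61474 with DMSO. TYRP1 of that list was dim in SkMel-1, at 27.6 and 18.7. In the other lists some markers were high in single lines with DMSO. LCP1 (blood cell) gave 2199.9 in SkMel-1, beside 44.5 to 114.4 in the other lines. CDH1 (epithelial) gave 4537.2 in Malme3M, beside 19.7 to 573.3, and LUM (fibroblast) 1443.4 in SkMel-5, beside 225.8 to 371.9. Only MLANA and KRT18 of the tested markers had a limma adjusted p under 0.05 at 250 nM. MLANA was higher by 0.20 on the log2 scale (limma adjusted p = 0.01) and KRT18 lower, at -0.77 (limma adjusted p = 0.00741), each in 5 of 5 lines. Within the same lists, S100B was lower, at -0.30 (limma adjusted p = 0.102), and CDH1 higher, at 0.72 (limma adjusted p = 0.0907), each in 4 of 5 lines. The part of these markers in the members' changes was not tested. The ratio of 3′ to 5′ signal of GAPDH, a check of RNA integrity, was 0.868 to 1.001 at 250 nM, 0.927 to 0.933 at 1000 nM and 0.899 to 0.962 with DMSO. Median signals of the arrays lay between 102.5 and 130.4.

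Of the 75 members, 69 reached the filter, a mean log2 value at the 40th percentile of genes (a signal near 85.7), and were tested. The 6 below it were the muscle isoforms COX6A2 and COX7A1, the assembly factors NDUFAF5 and NDUFAF7, ATP5MC2P1 and NDUFB2-AS1, whose signals stayed at or under 138.0 on all 12 arrays. SDHB, UQCRFS1 and NDUFS8, among other genes that match the rule, were not analysed here. Some probe sets can also bind RNA of related genes or pseudogenes: 8 tested members were read by a probe set whose suffix marks such cross-hybridisation, among them SDHA, UQCRB and ATP5MG of the members that changed.

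The first comparison, 250 nM PLX4032 against DMSO over the 5 lines, asks what 8 h of BRAF inhibition did to this RNA. Subunits of all 5 complexes were among the genes that rose: 18 of 69 members rose (limma, adjusted p under 0.05), and 1, the assembly factor NDUFAF4, fell. Those 18 are 26.1% of the tested members, beside 15.2% of all 7178 genes tested; the single fall is 1.45%, beside 13.1% of all genes. The higher share of rises depends on the fit: without the variance trend 8.7% of members and 14.1% of all genes rose, without SkMel-5 13.0% and 13.7%, and with arrays centred on their medians 14.5% and 12.2%. No subunit of the 66 tested fell (limma; 0 of 66 also at an unadjusted p under 0.05). The median member was 10.3% higher with the drug, a log2 change of 0.14, while the median of all genes was 0.03. Among the 3434 genes in the same signal range as the members, 16.2% rose and the median was again 0.03. The log2 change was above 0 in 62 of 69 members (89.9%, beside 55.7% of all genes). Leaving out 1 line at a time, 12 members rose without SkMel-1, 9 without SkMel-5, 11 without SkMel-19, 16 without SkMel-28 and 9 without Malme3M. COX7A2L, NDUFAF4, NDUFB5, SDHA, UQCRB and UQCRC2 passed in each of these fits and under every other setting tried that kept the cell line as a block.

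The median member was higher in every line, by differing amounts. The median log2 change of the 69 members was 0.20 in SkMel-1, 0.19 in SkMel-5, 0.05 in SkMel-19, 0.05 in SkMel-28 and 0.15 in Malme3M, where the medians of all genes lay between 0.01 and 0.05. The number of members higher with the drug was 57, 64, 47, 46 and 62 in the same order of lines. In all 5 lines alike, 31 members were higher (44.9%, beside 20.9% of all genes) and 1 was lower (beside 16.6%).

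**Figure D1:**
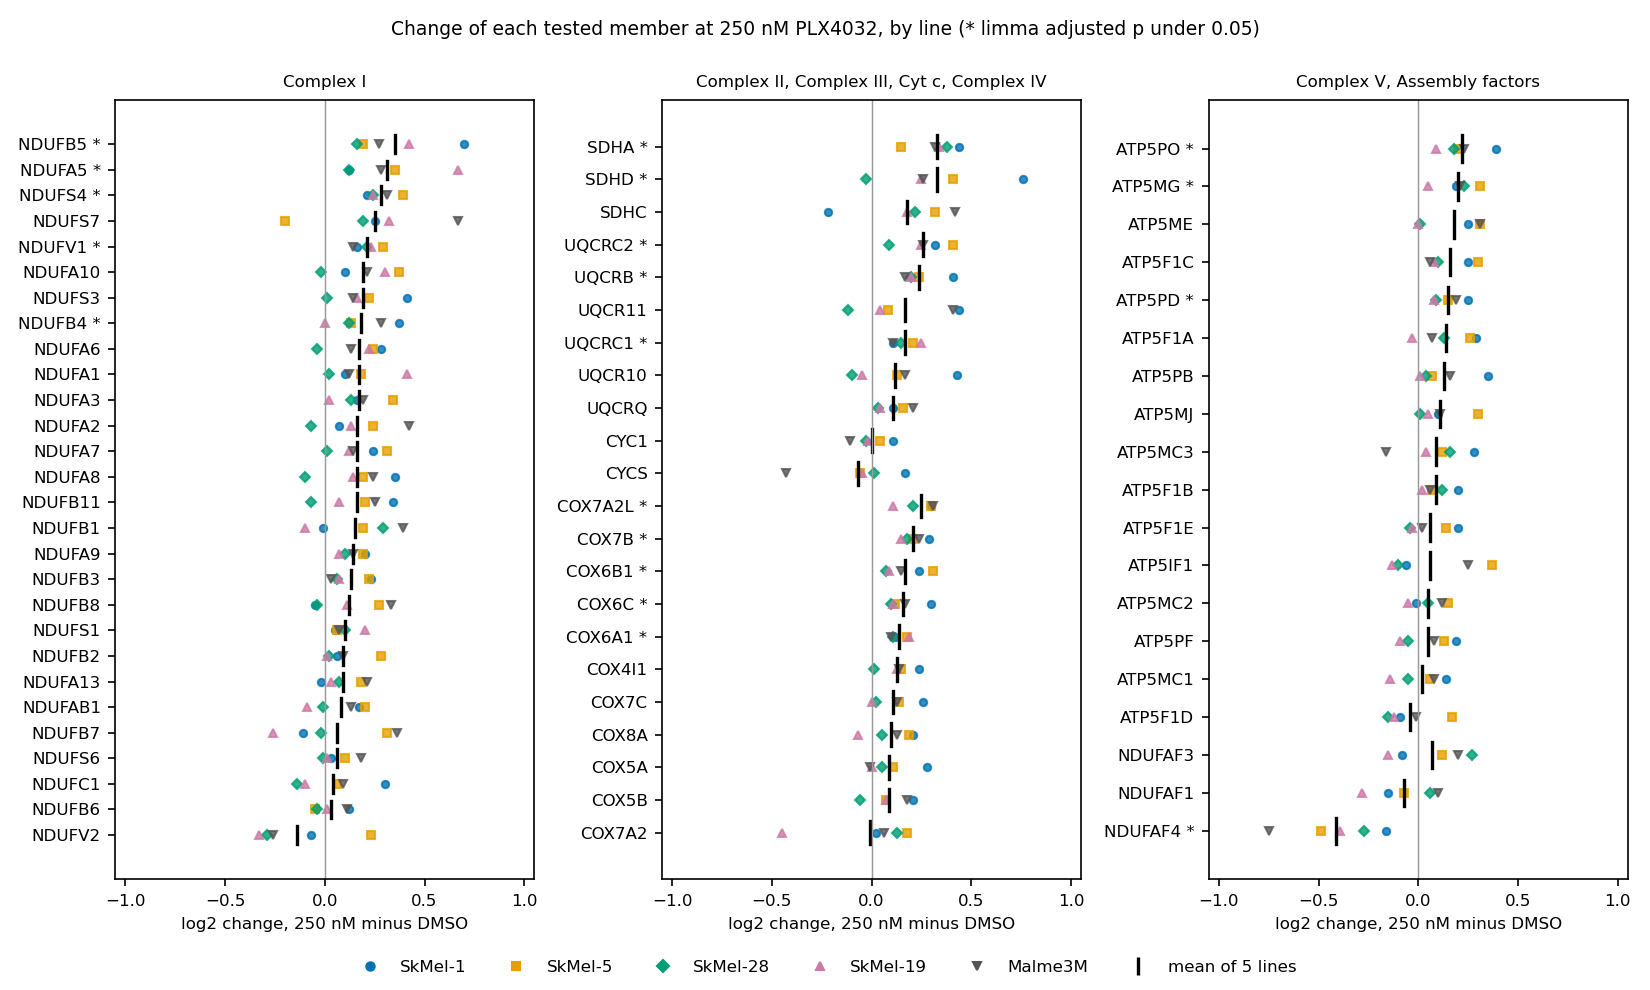
Log2 change of each tested member, 250 nM PLX4032 minus DMSO, in each of the 5 lines, grouped by complex. Most cells of the plot lie above 0 in SkMel-1, SkMel-5 and Malme3M, while SkMel-19 and SkMel-28 hold more values near 0, with medians of 0.05 in both.

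**Figure D2:**
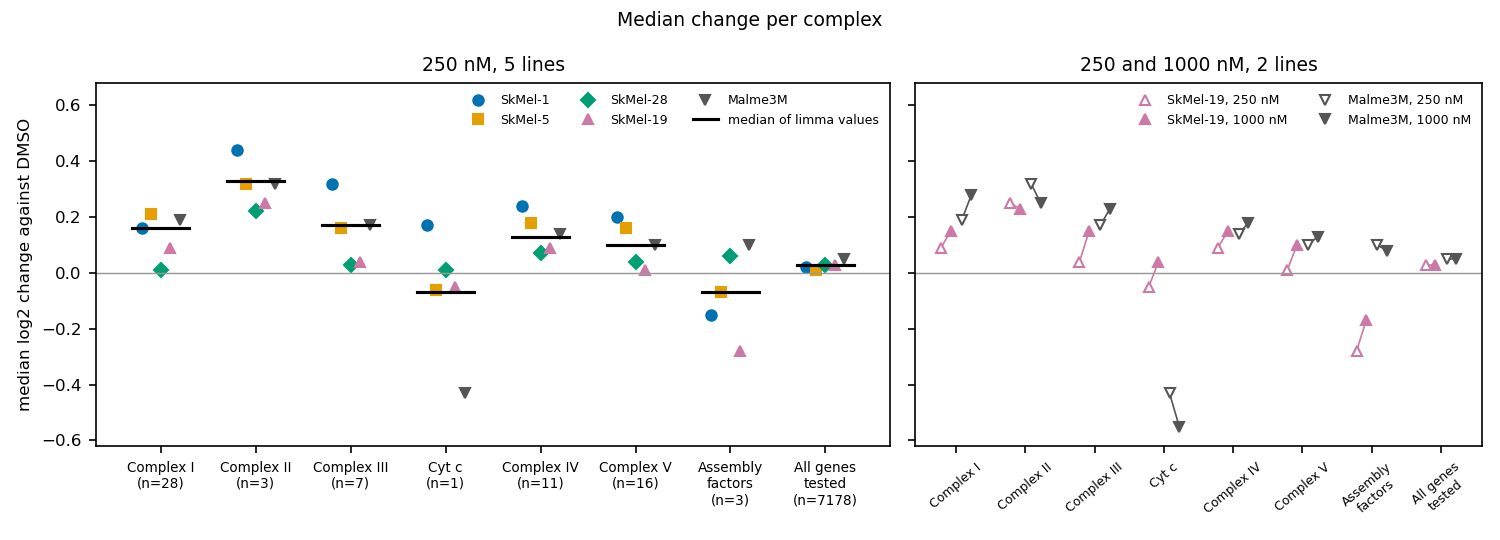
Median log2 change of tested members at 250 nM PLX4032 against DMSO by complex. Markers give the median of the members in each cell line, and bars the median of their fitted changes. A column for all genes is included, and a further panel shows both doses in the lines that received both. The medians of the fitted changes at 250 nM are 0.16 for complex I, 0.33 for II, 0.17 for III, 0.13 for IV, 0.10 for V and -0.07 for the assembly factors.

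In complex I, which oxidises NADH, 5 of 28 subunits rose (17.9%, near the 15.2% of all genes) and 0 fell (beside 13.1%). The median log2 change was 0.16. Signals are given below in the order SkMel-1, SkMel-5, SkMel-19, SkMel-28, Malme3M. The matrix arm, which holds the flavin and the iron-sulphur clusters, had 3 rises among 12 subunits (median 0.16), and the membrane arm, which holds the proton channels, 2 among 15 (median 0.15). NDUFB5, an accessory subunit of the membrane arm, gave signals of 3799.5, 5426, 4223, 3935 and 4243 at 250 nM, against 2329, 4745, 3149, 3532 and 3518 with DMSO. It was higher with the drug in every line, by 0.16 in SkMel-28 to 0.70 in SkMel-1 on the log2 scale, although the groups overlapped because the lines differ in level. The fitted change of NDUFB5 was the largest of complex I at 0.35 (SE 0.08, limma adjusted p = 0.014).

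NDUFA5, an accessory subunit of the matrix arm, gave 1518, 1803, 1458, 2627 and 2359 at 250 nM, against 1396, 1412, 914, 2413 and 1941 with DMSO. Its change of 0.31 (SE 0.09, limma adjusted p = 0.0321) was spread unevenly over the lines, by 0.12 in SkMel-1 to 0.67 in SkMel-19. NDUFS4, a matrix arm subunit whose loss causes Leigh syndrome, gave 1109, 1408, 1415, 1797 and 692 at 250 nM, against 959, 1075, 1195, 1518 and 554 with DMSO. The rise of NDUFS4, 0.28 (SE 0.07, limma adjusted p = 0.0181), was close to even between lines, by 0.21 in SkMel-1 to 0.39 in SkMel-5. NDUFV1, the flavoprotein that takes electrons from NADH, gave 4278, 2450.2, 3767, 2542 and 1688 at 250 nM, against 3825, 2000.4, 3219.6, 2195 and 1529 with DMSO. All lines were higher for NDUFV1, by 0.14 in Malme3M to 0.29 in SkMel-5, with a fitted change of 0.21 (SE 0.06, limma adjusted p = 0.0256). NDUFB4, another membrane arm subunit, gave 7339.5, 8454, 5466, 7186 and 6195 at 250 nM, against 5695, 7728, 5457, 6598 and 5112 with DMSO. Its smallest rise was in SkMel-19, where both arrays were nearly level, and the fitted change was 0.18 (SE 0.06, limma adjusted p = 0.0472). NDUFV2, an iron-sulphur subunit next to NDUFV1, had the lowest change of complex I and did not pass: 3751, 3292, 2979, 3805 and 2466 at 250 nM, against 3931, 2809.5, 3735, 4664 and 2965 with DMSO. Only SkMel-5 was higher for NDUFV2 among the 5 lines, and the fitted change was -0.14 (SE 0.08, limma adjusted p = 0.226); without SkMel-5 it passed, at -0.24 (limma adjusted p = 0.0356). The call was lost for NDUFA5 without SkMel-5, SkMel-19 or Malme3M (highest limma adjusted p 0.0891), NDUFS4 without SkMel-19 (highest limma adjusted p 0.05), NDUFV1 without SkMel-1, SkMel-5, SkMel-28 or SkMel-19 (highest limma adjusted p 0.0764) and NDUFB4 without SkMel-1, SkMel-5, SkMel-28 or Malme3M (highest limma adjusted p 0.14).

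In complex II, the succinate dehydrogenase that also serves the citric acid cycle, 2 of the 3 measured subunits rose (66.7%, beside 15.2% of all genes). The median log2 change was 0.33. SDHA, the flavoprotein that oxidises succinate, gave 3087, 2385, 2976, 1284 and 1914 at 250 nM, against 2265, 2146, 2355, 981 and 1534 with DMSO. It was higher in all 5 lines, by 0.15 in SkMel-5 to 0.44 in SkMel-1, and the fitted change was 0.33 (SE 0.07, limma adjusted p = 0.00796). SDHD, a membrane anchor that helps bind ubiquinone, gave 3140.0, 1930.3, 1382, 1901 and 1333 at 250 nM, against 1852, 1452, 1164, 1939 and 1108 with DMSO. The lines differed for SDHD, by -0.03 in SkMel-28 to 0.76 in SkMel-1, and the fitted change was 0.33 (SE 0.10, limma adjusted p = 0.043). SDHC, the other membrane anchor, gave 1874, 4121, 2470.0, 2069 and 3692 at 250 nM, against 2179.9, 3299.9, 2183, 1779 and 2760.2 with DMSO. SDHC was lower in SkMel-1 and higher in the other lines, and its change of 0.18 (SE 0.09, limma adjusted p = 0.154) did not pass; without SkMel-1 it did, at 0.28 (limma adjusted p = 0.0259). The call was lost for SDHD without SkMel-1, SkMel-5, SkMel-19 or Malme3M (highest limma adjusted p 0.115). Averaged with a second, dim probe set of mean signal 11.1, SDHD had a change of 0.15 (limma adjusted p = 0.511).

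In complex III, which passes electrons from ubiquinol to cytochrome c, 3 of 7 subunits rose (42.9%, beside 15.2% of all genes). None fell, beside 13.1% of all genes, and the median log2 change was 0.17. UQCRC2, a core subunit on the matrix side, gave 3895, 2745, 2738, 3696 and 1904 at 250 nM, against 3126, 2068, 2306, 3479 and 1592 with DMSO. All lines were higher for UQCRC2, by 0.09 in SkMel-28 to 0.41 in SkMel-5, with a fitted change of 0.26 (SE 0.06, limma adjusted p = 0.0162). UQCRB, a subunit next to the ubiquinone site, gave 6742, 6528, 5121, 7848 and 5344 at 250 nM, against 5055, 5540.0, 4446, 6834 and 4758 with DMSO. It was higher in every line, by 0.17 in Malme3M to 0.41 in SkMel-1, with a fitted change of 0.24 (SE 0.05, limma adjusted p = 0.00913). UQCRC1, the partner core subunit of UQCRC2, gave 6523, 6131, 6323, 4983 and 3959 at 250 nM, against 6049, 5286, 5333, 4477 and 3672 with DMSO. Its rise was smaller, 0.17 (SE 0.05, limma adjusted p = 0.0294), and present in 5 of 5 lines. CYC1, the haem-carrying cytochrome c1, gave 3832, 6529, 4553, 4795 and 2674 at 250 nM, against 3556, 6368, 4622, 4883 and 2886 with DMSO. The lines were split for CYC1, higher in 2 and lower in 3 (limma adjusted p = 0.973). CYCS, the mobile carrier cytochrome c itself, gave 11743, 9612, 7328, 9514 and 6014 at 250 nM, against 10424, 9994, 7569.8, 9453 and 8119 with DMSO. Malme3M was the lowest of the lines for CYCS with the drug, and the change of -0.07 (SE 0.07, limma adjusted p = 0.505) did not pass. The call was lost for UQCRC1 without SkMel-5, SkMel-28, SkMel-19 or Malme3M (highest limma adjusted p 0.0938).

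In complex IV, 5 of the 11 tested subunits rose (45.5%, beside 15.2% of all genes) and 0 fell (beside 13.1%). The median log2 change was 0.13. COX7A2L, which binds complexes III and IV into supercomplexes, gave 3123, 3848, 3670.1, 3447 and 2819 at 250 nM, against 2530.4, 3119, 3397, 2973 and 2264 with DMSO. It was higher in all lines, by 0.11 in SkMel-19 to 0.31 in Malme3M, with the largest fitted change of complex IV, 0.25 (SE 0.06, limma adjusted p = 0.0132). COX7B, a small accessory subunit, gave 8586, 8309, 6927, 8264 and 6554 at 250 nM, against 7032, 7167, 6261, 7279.5 and 5559.8 with DMSO. The lines were close together for COX7B, by 0.15 in SkMel-19 to 0.29 in SkMel-1, and the fitted change was 0.21 (SE 0.04, limma adjusted p = 0.00713); without the variance trend it did not pass (limma adjusted p = 0.0517). COX6B1, which faces the intermembrane space, gave 4335, 3945, 4045, 4224 and 3954 at 250 nM, against 3678, 3169, 3798, 4018 and 3553 with DMSO. All 5 drug-treated arrays lay above every DMSO array but that of SkMel-28 for COX6B1, and the fitted change was 0.17 (SE 0.06, limma adjusted p = 0.0471). COX6C, a membrane-spanning subunit, gave 10623, 10414, 6390.1, 7506 and 8022 at 250 nM, against 8599, 9595, 5940.0, 7007 and 7136 with DMSO. Its change of 0.16 (SE 0.05, limma adjusted p = 0.0299) was present in 5 of 5 lines. COX6A1, the isoform of subunit 6A found outside muscle, gave 14259, 10747, 9453, 7734 and 8813 at 250 nM, against 13126, 9464, 8258, 7153 and 8204 with DMSO. COX6A1 had the smallest change of the members that rose, 0.14 (SE 0.04, limma adjusted p = 0.0223), and was likewise higher in 5 of 5 lines. The call was lost for COX6B1 without any 1 of the 5 lines (highest limma adjusted p 0.12), COX6C without SkMel-1, SkMel-5, SkMel-19 or Malme3M (highest limma adjusted p 0.0872) and COX6A1 without SkMel-5, SkMel-19 or Malme3M (highest limma adjusted p 0.0685).

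COX4I1, the common isoform of the large nuclear subunit 4, gave 8775, 8557, 8926, 4272 and 6898 at 250 nM, against 7409.9, 7714, 8172, 4246 and 6244 with DMSO. It was higher in every line but nearly level in SkMel-28, and its change of 0.13 (SE 0.05, limma adjusted p = 0.058) did not pass; without SkMel-28 it did, at 0.17 (limma adjusted p = 0.0431). COX7A2, the isoform of subunit 7A found in most tissues, gave 5960.4, 6718, 11.5, 6220.3 and 5416 at 250 nM, against 5862, 5926, 20, 5695 and 5212 with DMSO. SkMel-19 lay below the signal filter on all its arrays, with 8.3 at 1000 nM, while the other 4 lines lay between 5212 and 6718 in both groups; 1 probe set reads this gene. The fitted change of COX7A2 was -0.01 (SE 0.09, limma adjusted p = 0.936), and without SkMel-19 it was 0.10 (SE 0.05, limma adjusted p = 0.232). COX7A2L, the related gene, had its highest DMSO signal in SkMel-19. COXFA4, the complex IV subunit formerly named NDUFA4 and no longer matched by the rule, had a change of 0.14 (SE 0.06, limma adjusted p = 0.106, higher in 4 of 5 lines), and COXFA4L2 lay below the filter.

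In complex V, 3 of 16 subunits rose (18.8%, near the 15.2% of all genes) and 0 fell (beside 13.1%), with the lowest median of the 5 complexes, 0.10. By part, 2 of 4 subunits rose in the peripheral stalk, which holds the catalytic head still. In the membrane part 1 of 6 rose, and in the catalytic head and central stalk 0 of 5. At an unadjusted limma p under 0.05, 2, 2 and 3 subunits were higher in that order of parts. Differences between the parts were not tested. ATP5PO, the stalk subunit that confers oligomycin sensitivity, gave 7946, 6419, 4944, 7175 and 5045 at 250 nM, against 6081, 5574, 4658, 6310.1 and 4298 with DMSO. All lines were higher for ATP5PO, by 0.09 in SkMel-19 to 0.39 in SkMel-1, with a fitted change of 0.22 (SE 0.05, limma adjusted p = 0.0162); it did not pass with probe sets averaged, at 0.16 (limma adjusted p = 0.0994), or without the variance trend (limma adjusted p = 0.0639). ATP5PD, subunit d of the same stalk, gave 9011, 10384, 8084, 7519 and 5888 at 250 nM, against 7579, 9363, 7641, 7044 and 5144 with DMSO. It was higher in 5 of 5 lines with a change of 0.15 (SE 0.04, limma adjusted p = 0.029). ATP5MG, subunit g of the membrane part, gave 9632, 6635, 5698, 4780.0 and 4215 at 250 nM, against 8457, 5338, 5503, 4077 and 3642 with DMSO. SkMel-1 was the highest line for ATP5MG in both groups, and the fitted change was 0.20 (SE 0.05, limma adjusted p = 0.0203). The call was lost for ATP5PD without SkMel-1, SkMel-5 or Malme3M (highest limma adjusted p 0.0908) and ATP5MG without SkMel-1, SkMel-5, SkMel-28 or Malme3M (highest limma adjusted p 0.0585).

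ATP5F1A, the alpha subunit of the catalytic head, gave 11047, 9502, 9251, 9294 and 8620.2 at 250 nM, against 9045, 7956, 9478, 8501 and 8196 with DMSO. SkMel-19 alone was lower for ATP5F1A with the drug, and the change of 0.14 (SE 0.05, limma adjusted p = 0.074) did not pass; without SkMel-19 it did, at 0.19 (limma adjusted p = 0.0447). ATP5F1B, the catalytic beta subunit, gave 13139, 9819, 11079, 10200.5 and 10147 at 250 nM, against 11472, 9369, 10962, 9362 and 9764 with DMSO. It was higher in all 5 lines by small amounts, 0.02 in SkMel-19 to 0.20 in SkMel-1, and did not pass either, at 0.09 (SE 0.04, limma adjusted p = 0.116). ATP5F1D, the delta subunit of the central stalk, gave 2314, 1584, 2297, 1292 and 1552 at 250 nM, against 2472, 1407, 2492, 1434 and 1564 with DMSO. Its change of -0.04 (SE 0.07, limma adjusted p = 0.697) was the lowest of complex V, with SkMel-5 the only line above 0. ATP5IF1, the inhibitor that blocks the enzyme from running in reverse, gave 771, 529, 1441, 1182 and 801 at 250 nM, against 805, 408, 1578, 1266 and 673 with DMSO. The lines were split for ATP5IF1, and the change was 0.06 (SE 0.10, limma adjusted p = 0.643).

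Among the complex I assembly factors, NDUFAF4, which works early in building the matrix arm, was the one member that fell. NDUFAF4 gave 569.5, 815, 712, 975 and 425 at 250 nM, against 638, 1153, 937, 1177 and 721 with DMSO. It was lower in all 5 lines, with log2 changes of -0.75 in Malme3M to -0.16 in SkMel-1, and fell by 0.41 on the log2 scale (SE 0.10, limma adjusted p = 0.0146). NDUFAF3, its partner in assembly, gave 1074, 2320.0, 1723, 1694 and 1869.5 at 250 nM, against 1138, 2137, 1913, 1406 and 1626 with DMSO. The lines were split for NDUFAF3, and the change was 0.07 (SE 0.08, limma adjusted p = 0.539). The medians of the complexes above were not tested against each other.

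**Figure D3:**
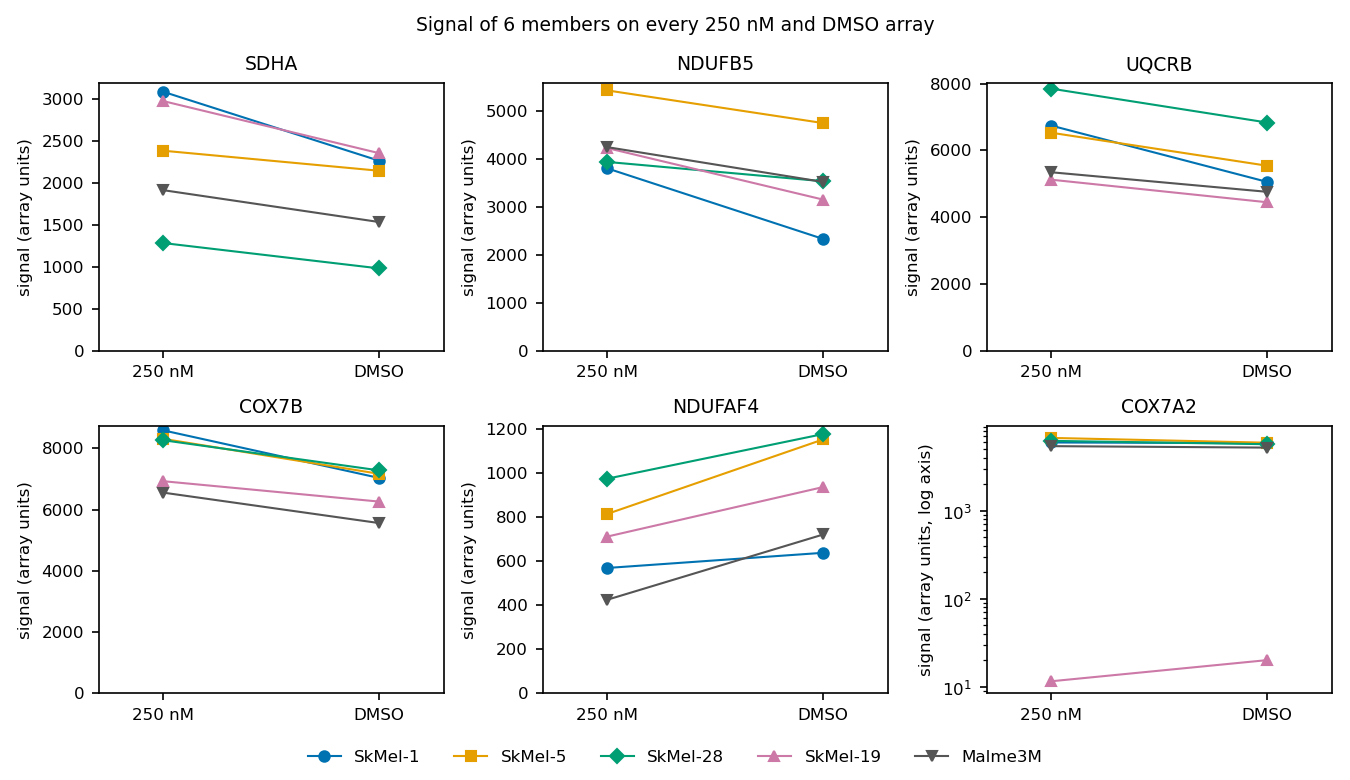
Array signals of SDHA, NDUFB5, UQCRB, COX7B, NDUFAF4 and COX7A2 in arbitrary units, with 250 nM PLX4032 on the left, DMSO on the right and a line joining the arrays of each cell line. The first 4 genes are higher with the drug in all lines, NDUFAF4 is lower in all lines, and COX7A2 in SkMel-19 lies near 0 in both groups, at 11.5 with the drug and 20 with DMSO.

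Promoter sequence from RefSeq was available for 64 of the 73 members with a protein (GRCh38.p14, 250 bases before to 50 after the first listed start). Factors known to bind promoters of respiratory genes were looked up by their core letters on both strands: NRF1 (GCGCA, any base, then GCGC), GABPA (CCGGAAG), ESRRA (AAGGTCA), YY1 (AAGATGGCG) and the TATA box (TATAAA). NRF1 letters stood in 21.9% of member promoters, 12.8% of the 6058 promoters of all tested genes and 6.28% of the 27305 promoters in the table. ESRRA letters stood in 12.5% of member promoters (8 of 64), beside 2.21% of those of tested genes and 3.97% of all. GABPA letters stood in 28.1%, beside 20.6% and 10.7%; YY1 letters in 10.9%, beside 4.74% and 1.85%; and TATAAA in 10.9%, beside 5.07% and 12%. No member promoter of complex IV held the NRF1 letters (0 of 11), while 5 of 11 held those of GABPA. These shares describe the letters in the windows and were not tested. Of the 15 members that rose and have a window, 33.3% held NRF1 letters, 33.3% GABPA, 26.7% ESRRA, 13.3% YY1 and 13.3% TATAAA. Among the 45 tested members without a call, the shares were 17.8%, 26.7%, 8.89%, 11.1% and 8.89% in that order. The ESRRA shares stand for 4 genes in each group, and the differences were not tested.

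The windows of 4 members are printed to show these letters in place, chosen as large changes of complexes I, II and V and the member that fell. Sequences run 5′ to 3′ on the gene's strand, and capitals mark the matches. SDHD (chr11:112086623-112086922, plus strand) holds NRF1 letters 110 bases before its start, GABPA letters 77 before it and ESRRA letters 11 after it, the GABPA and ESRRA letters being on the other strand. NDUFA5 (chr7:123601602-123601901, minus strand) holds ESRRA letters 133 bases before its start, on the other strand. ATP5PO (chr21:33915755-33916054, minus strand) holds NRF1 letters 24 bases before its start, on the other strand. NDUFAF4 (chr6:96897842-96898141, minus strand) holds GABPA letters 147 bases before its start.
SDHD: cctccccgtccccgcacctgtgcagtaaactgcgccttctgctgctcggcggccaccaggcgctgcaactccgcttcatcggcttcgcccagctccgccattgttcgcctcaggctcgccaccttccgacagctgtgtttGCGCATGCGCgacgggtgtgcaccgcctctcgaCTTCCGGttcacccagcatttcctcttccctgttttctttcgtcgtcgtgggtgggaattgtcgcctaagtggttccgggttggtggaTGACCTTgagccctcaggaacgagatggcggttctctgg
NDUFA5: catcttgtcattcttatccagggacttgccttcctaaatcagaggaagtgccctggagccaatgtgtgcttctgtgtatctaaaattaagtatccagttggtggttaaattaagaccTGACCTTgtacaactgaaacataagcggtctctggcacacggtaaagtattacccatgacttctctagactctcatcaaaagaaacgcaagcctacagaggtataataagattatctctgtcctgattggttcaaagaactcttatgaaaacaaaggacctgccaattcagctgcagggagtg
ATP5PO: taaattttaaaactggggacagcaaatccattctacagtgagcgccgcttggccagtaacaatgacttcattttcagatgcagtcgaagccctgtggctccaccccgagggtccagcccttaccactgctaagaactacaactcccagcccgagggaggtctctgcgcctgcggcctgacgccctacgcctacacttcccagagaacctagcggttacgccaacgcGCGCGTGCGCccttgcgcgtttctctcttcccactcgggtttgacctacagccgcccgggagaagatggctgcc
NDUFAF4: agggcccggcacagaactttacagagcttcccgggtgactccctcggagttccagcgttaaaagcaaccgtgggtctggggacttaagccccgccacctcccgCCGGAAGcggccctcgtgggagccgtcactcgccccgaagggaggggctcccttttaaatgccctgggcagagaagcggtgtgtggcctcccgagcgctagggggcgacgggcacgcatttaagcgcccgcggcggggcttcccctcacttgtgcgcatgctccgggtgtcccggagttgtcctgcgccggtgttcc
The NRF1 letters of SDHD match on both strands, and no printed match overlaps one of another factor. The window of UQCRC2 held TATAAA 93 bases before its start and none of the other letters, and that of COX7A2L held none of the 5.

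Genes that supply and build the chain moved in both directions. The other genes of the pathway were taken in 9 lists. In the list of the machinery that copies and reads mitochondrial DNA, 5 of 12 tested genes fell, beside 13.1% of all genes, and 0 rose (median log2 change -0.19). TWNK, the mitochondrial DNA helicase, fell by 0.98 (SE 0.11, limma adjusted p = 0.000542). TFB2M, needed to start mitochondrial transcription, fell by 0.84 (SE 0.08, limma adjusted p = 0.0004), and TFB1M, a methylase of mitochondrial ribosomal RNA, fell by 0.66 (SE 0.13, limma adjusted p = 0.00627). TFAM, which packs mitochondrial DNA and helps start its transcription, fell by 0.52 (SE 0.08, limma adjusted p = 0.00258). All 4 were lower in 5 of 5 lines. At an unadjusted p under 0.05 the list held the same counts, 5 lower and 0 higher. Mitochondrially encoded RNA was not analysed here.

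Among 27 other assembly factors tested, 3 rose (11.1%, below the 15.2% of all genes) and 2 fell (7.41%, below 13.1%), with a median of 0.05. SCO2, which delivers copper to complex IV, fell by 0.47 (SE 0.09, limma adjusted p = 0.00551), and COA4, a complex IV assembly factor, fell by 0.32 (SE 0.09, limma adjusted p = 0.0267). COX10, which makes haem for complex IV, rose by 0.42 (SE 0.11, limma adjusted p = 0.0177), and UQCC1, which helps make cytochrome b of complex III, rose by 0.33 (SE 0.08, limma adjusted p = 0.0197). Each of the 4 moved one way in all 5 lines.

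Of 10 nuclear regulators of respiratory genes, 2 rose (beside 15.2% of all genes) and 1 fell (beside 13.1%), with a median of 0.00. PPARGC1A, the coactivator of mitochondrial genes, rose by 1.86 (SE 0.18, limma adjusted p = 0.000397). TFEB, a regulator of lysosomal genes, rose by 1.26 (SE 0.21, limma adjusted p = 0.00345), and PPRC1, a relative of PPARGC1A, fell by 0.77 (SE 0.16, limma adjusted p = 0.00838). Line by line, PPARGC1A changed by 2.25 in SkMel-1, 1.04 in SkMel-5, 1.73 in SkMel-19, 1.78 in SkMel-28 and 2.49 in Malme3M, beside member medians of 0.20, 0.19, 0.05, 0.05 and 0.15. With 5 lines, no correlation between these values is given.

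Upstream of the chain, 5 of 12 citric acid cycle genes rose, beside 15.2% of all genes, and 0 fell, beside 13.1%. Their median of 0.20 was the highest of these lists. DLD, shared by the 2-oxoacid dehydrogenases, rose by 0.38 (SE 0.06, limma adjusted p = 0.00364). Both SUCLG1, at 0.34 (SE 0.05, limma adjusted p = 0.0024), and SUCLG2, at 0.28 (SE 0.07, limma adjusted p = 0.0235), are subunits of succinyl-CoA ligase. DLST, of the oxoglutarate dehydrogenase complex, rose by 0.25 (SE 0.08, limma adjusted p = 0.0453). Around pyruvate dehydrogenase 2 of 11 rose (18.2%, near the 15.2% of all genes) and 0 fell (beside 13.1%). PDK2, a kinase that switches the enzyme off, rose by 0.62 (SE 0.11, limma adjusted p = 0.00497), and PDHA1, the enzyme's catalytic subunit, by 0.23 (SE 0.06, limma adjusted p = 0.0226).

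For the cofactors, 3 of 10 genes of coenzyme Q synthesis and 5 of 15 of haem and iron-sulphur cluster synthesis rose, beside 15.2% of all genes, and 0 fell in either list, beside 13.1% (medians 0.09 and 0.07; 0 and 2 lower at an unadjusted limma p under 0.05). COQ9 rose by 0.57 (SE 0.14, limma adjusted p = 0.016), PDSS2 by 0.35 (SE 0.10, limma adjusted p = 0.0345) and COQ7, a hydroxylase of the pathway, by 0.34 (SE 0.09, limma adjusted p = 0.0227). ALAD, an early enzyme of haem synthesis, rose by 0.51 (SE 0.08, limma adjusted p = 0.00313), and ISCU, the scaffold on which iron-sulphur clusters form, by 0.43 (SE 0.09, limma adjusted p = 0.00994). PPOX and UROS, later enzymes of haem synthesis, rose by 0.33 (SE 0.10, limma adjusted p = 0.0414) and 0.32 (SE 0.08, limma adjusted p = 0.0215).

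None of the 7 tested carriers passed in limma, 0 of 7 also at an unadjusted p under 0.05 (median 0.02); VDAC1, the outer membrane channel, had -0.11 (limma adjusted p = 0.206) and SLC25A3, the phosphate carrier, 0.08 (limma adjusted p = 0.207). Of 7 dehydrogenases that feed ubiquinone beside complexes I and II, 2 rose (beside 15.2% of all genes) and 1 fell (beside 13.1%), with a median of -0.01. PRODH, proline dehydrogenase, rose by 1.14 (SE 0.25, limma adjusted p = 0.0101) and ETFDH, which takes electrons from fatty acid oxidation, by 0.43 (SE 0.10, limma adjusted p = 0.0139). DHODH, of pyrimidine synthesis, fell by 0.42 (SE 0.11, limma adjusted p = 0.0262).

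**Figure D4:**
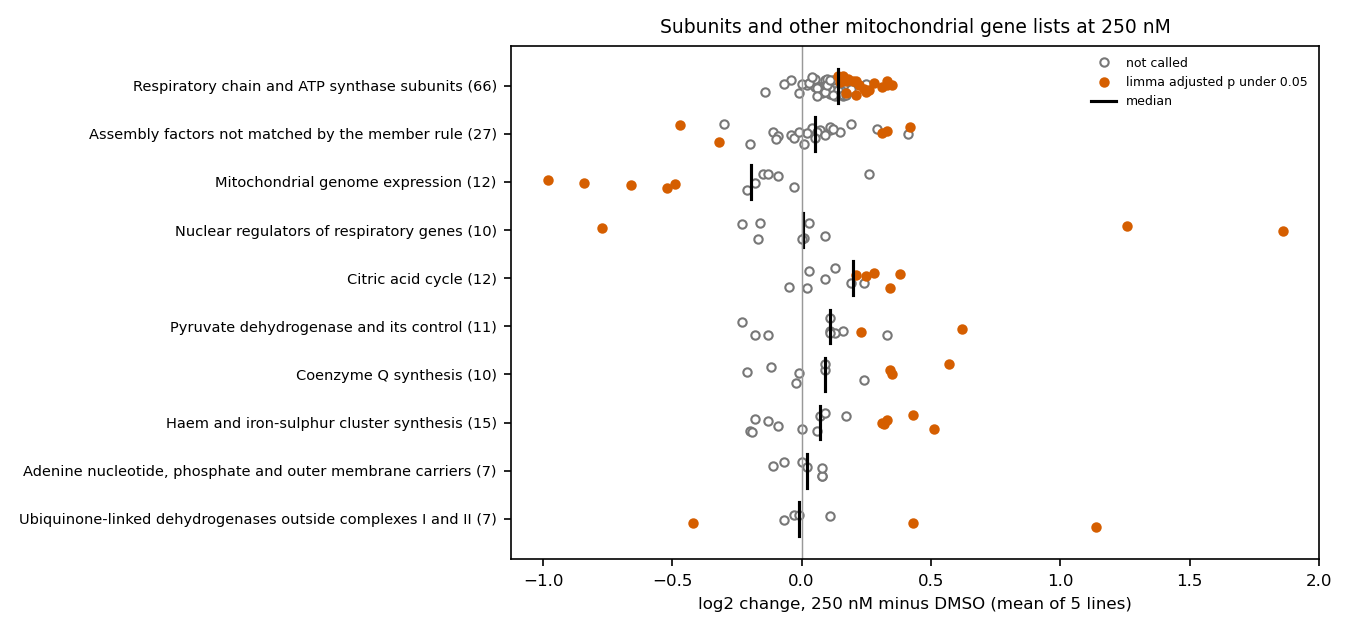
Log2 change at 250 nM PLX4032 against DMSO of the genes of each list beside the 66 tested subunits of the respiratory chain and ATP synthase. Each gene is a point and each median a line. The complex I assembly factors among the members, NDUFAF4 included, are left out of the row of subunits. Citric acid cycle genes have the highest median, 0.20, and mitochondrial genome expression the lowest, -0.19.

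The second comparison used the lines that also received 1000 nM, SkMel-19 and Malme3M, with all 6 of their arrays in one fit. At 1000 nM against DMSO 3 of 69 members rose (4.35%, beside 5.29% of all genes) and 0 fell (beside 5.89%). At an unadjusted limma p under 0.05, 28 members were higher and 2 lower, 30 in either direction. Of all 7178 genes, 1258 were higher and 2313 changed in either direction at that p. The median log2 change was 0.17, beside 0.04 for all genes, and 60 of 69 members were above 0 (87.0%, beside 55.3% of all genes). Both lines were higher in 53 members (76.8%, beside 41.1% of all genes) and lower in 4 (beside 31.8%).

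UQCRB gave signals of 5121 at 250 nM and 5904 at 1000 nM, against 4446 with DMSO, in SkMel-19, and of 5344 at 250 nM and 5898 at 1000 nM, against 4758 with DMSO, in Malme3M. It rose by 0.36 (SE 0.06, limma adjusted p = 0.0231), and both lines were higher at each dose than with DMSO. NDUFB5 gave signals of 4223 at 250 nM and 4401 at 1000 nM, against 3149 with DMSO, in SkMel-19, and of 4243 at 250 nM and 4290.4 at 1000 nM, against 3518 with DMSO, in Malme3M. The rise of NDUFB5 at 1000 nM, 0.38 (SE 0.08, limma adjusted p = 0.0349), was of the size found at 250 nM. NDUFA1, an accessory subunit of the complex I membrane arm, gave signals of 7838 at 250 nM and 8406 at 1000 nM, against 5879.7 with DMSO, in SkMel-19, and of 6636 at 250 nM and 7325 at 1000 nM, against 6086 with DMSO, in Malme3M. Its rise was 0.39 (SE 0.08, limma adjusted p = 0.0389). In the same 2 lines 250 nM gave 1 rise, NDUFB5 (1.45%, beside 5.98% of all genes), and 0 falls (beside 5.36%; 2 lower at an unadjusted limma p under 0.05), with a median of 0.12. Further fits took the arrays of all 5 lines and left out the 1000 nM array of SkMel-19 or of Malme3M. The lone remaining 1000 nM array is then assumed to vary like the others. In these fits the median member change at 1000 nM was 0.17 without the SkMel-19 array and 0.16 without the Malme3M array. Of the lists, mitochondrial genome expression had 5 of 12 genes lower at 1000 nM (beside 5.89% of all genes), TFAM among them at -0.53 (limma adjusted p = 0.0397). Of 10 regulators, 2 were higher (beside 5.29% of all genes) and 1 lower (beside 5.89%), with a median of -0.07. The 2 were PPARGC1A at 2.11 (limma adjusted p = 0.006) and TFEB at 1.74 (limma adjusted p = 0.00569). COX10, which rose at 250 nM, did not pass at 1000 nM, at -0.14 (SE 0.30, limma adjusted p = 0.772), with -0.83 in SkMel-19 and 0.54 in Malme3M.

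Between the doses, 1000 nM against 250 nM, 0 members passed in limma, as did 0 of all 7178 genes (0.0%); at an unadjusted p under 0.05 there were 1 member, UQCRB, and 75 of all genes. Fits with and without the variance trend gave the same count. The median log2 difference was 0.04, beside -0.02 for all genes; 31 members were higher in both lines at 1000 nM (44.9%, beside 20% of all genes) and 5 lower in both (beside 27.8%). The smallest p belonged to UQCRB, with a difference of 0.17 (limma adjusted p = 0.999). Next were ATP5F1A at 0.13 (limma adjusted p = 0.999) and ATP5PF, coupling factor 6 of the peripheral stalk, at 0.16 (limma adjusted p = 0.999). With 2 lines the fit has 2 residual degrees of freedom. The 250 nM and 1000 nM comparisons share their DMSO arrays.

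With DMSO alone, the median spread between the 5 lines was smaller for the members than for all genes, a difference that was not tested. The median SD of log2 signal over the DMSO arrays was 0.36 for the members, 0.42 for genes in the same signal range and 0.46 for all genes, and the median ratio of the highest line to the lowest was 1.83, 2.05 and 2.22. Malme3M was the lowest line for 29 of 69 members and the highest for 2, with a median deviation of -0.20 from the mean of the lines; over all genes its median deviation was 0.04, and it was the lowest line for 1320 of 7178. SkMel-1 was the highest line for 21 of 69 members, with a median deviation of 0.17. Over all genes it was the highest line for 1398 of 7178, with a median deviation of -0.02. The DMSO array of Malme3M also had the highest median signal of the 5, 127.6; the part of this in the members' lower values was not tested. Complex III had the lowest values in Malme3M, with a median deviation of -0.39 and 5 of 7 subunits lowest there.

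The 3 members with the widest range between lines were COX7A2, whose SkMel-19 signal is given above, ATP5IF1 and NDUFA9. ATP5IF1 had its highest DMSO signal in SkMel-19 and its lowest in SkMel-5, a 3.78-fold range. NDUFA9, which stabilises the junction of the complex I arms, gave 6866, 1906, 2844, 2078 and 2112 at 250 nM, against 5972, 1664, 2703, 1942 and 1914 with DMSO. SkMel-1 was the highest line for NDUFA9 in both groups, and its DMSO range was 3.57-fold.

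**Figure D5:**
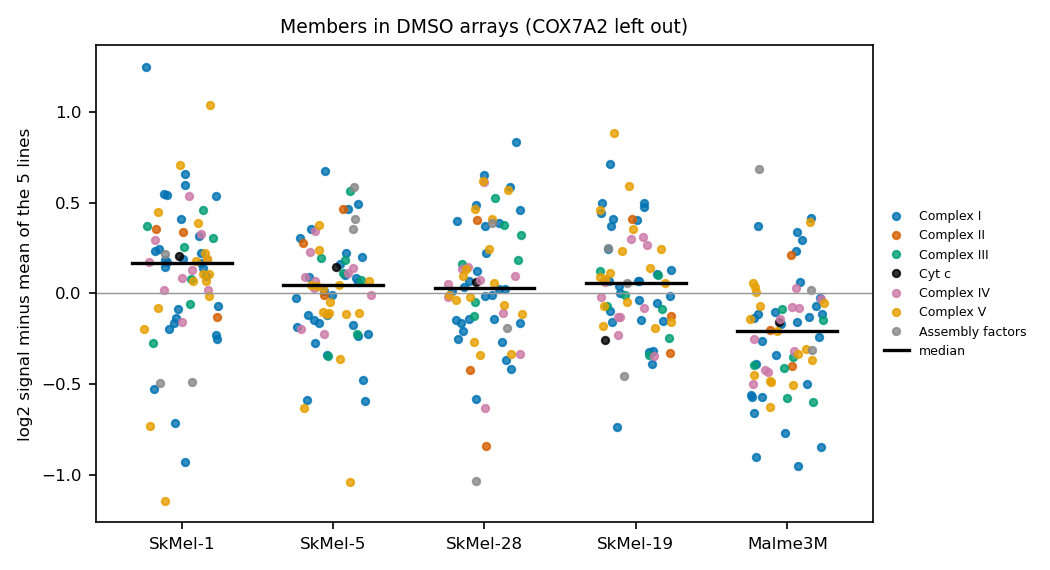
Log2 signal of each tested member with DMSO relative to its mean over the 5 lines, by line, with medians marked and COX7A2 left out. The Malme3M points centre below 0, at -0.20 over all 69 members, and the SkMel-1 points above 0, at 0.17.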

How the data were processed

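The values are intensities on a linear scale, one per probe set and array, made and deposited by the authors; per the submitters' processing notes GCOS, the array maker's software, was used, and its version and settings were not given there. The trimmed mean of each array (2% left out at each end) was 500.1 on all 12 arrays. Of 22277 probe sets, 19064 name 1 gene in the platform annotation, 1043 name several and 2108 none; several-gene probe sets were left out, and the probe set with the highest mean stands for a gene. Values became log2(signal + 12), 12 being the 20th percentile of all values, so a fold change understates that of dim genes. Genes below the 40th percentile (log2 6.61) were not tested. Tests used limma 3.58.1 (R 4.3.3): lmFit and eBayes with a trend, the cell line as a block, Benjamini-Hochberg adjustment over all 7178 genes at 0.05, on the 10 arrays of 250 nM and DMSO, or on the 6 arrays of SkMel-19 and Malme3M for 1000 nM. The line pairs the 250 nM and DMSO arrays by design. Within a line, deviations from the group means had r of 0.898 to 0.931, and between lines at most -0.135. Subtracting the group means itself pushes r between lines below 0, so the gap between these r values is partly built in. The fit was tested on simulated data. Alternatives were a pseudocount of 50, no filter, other scalings, the mean of probe sets, no block, no trend, all 12 arrays and leaving out lines. For 1000 nM, leaving out a line meant all 12 arrays without that line's 1000 nM array. Figures used matplotlib 3.10.9.

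The members and gene lists were chosen with earlier results of these data known. Named with array values are members that passed at 250 nM, the extremes of each complex and a fixed set of subunits; at 1000 nM and between doses those that passed or had the 3 smallest p-values; at baseline the 3 widest ranges; and in each list up to 4 that passed or the 2 smallest p-values. NDUFA4 and NDUFA4L2 of that set were found under their current names, COXFA4 and COXFA4L2. The number of arrays limits the precision.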

Additional observations from a re-analysis of the deposited data

Results flagged for a closer look

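In all, 99 sets of 5 arrays were checked for 1 array far from the rest. The sets were the members named with array values, at 250 nM, with DMSO and as changes within lines. Dixon's test, where chance flags about 1 in 20, flagged 3, and all 3 are COX7A2 in SkMel-19. COX7A2 was itself named for its wide range between lines and its low change, so that rate does not apply to it. The 3 flags concern the same gene and line and are not separate events. Its log2 signal there was 4.55 at 250 nM, where the other lines had 12.41 to 12.72, and 5.00 with DMSO, where they had 12.35 to 12.54. The log2 change of COX7A2 was -0.45 in SkMel-19 and 0.02 to 0.18 in the other lines; both SkMel-19 signals behind it lie below the signal filter.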

How the results depend on the processing

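All 19 members that passed at 250 nM kept their direction under the 12 alternatives, and no called result reversed; of the members without a call, COX7A2 changed sign with a pseudocount of 50 (0.04) and without SkMel-19 (0.10), CYCS without Malme3M (0.02) and ATP5IF1 without SkMel-5 (-0.01). The count of rises, 18, was 11 without the filter, 10 with arrays centred on their medians, 6 without the variance trend and 9 to 16 when 1 line was left out; the cause was not tested, except that each line left out removes 2 arrays. Falls were 1 to 2 when 1 line was left out. Without the cell line as a replicate block the counts were 0 rises and 0 falls at 250 nM and 0 rises at 1000 nM, where 13 and 0 of all genes passed. The 3 members that rose at 1000 nM also did not pass without the filter (0) or without the trend (0). In contrast, 5 rose with probe sets averaged and 5 with all 12 arrays of the 5 lines in 1 fit. Leaving either line's 1000 nM array out of that fit leaves 1 array in the group, so no call is read from it. The median change at 1000 nM was 0.14 after quantile normalization. For single members with a call, 149 of 258 comparisons with an alternative kept it and 109 lost it; for those without one, 4 of 132 gained one. The test has few degrees of freedom, and signals near the filter are the least certain.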
